A study of Mus musculus with 23 samples.

Results

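Ribosome biogenesis was followed through 36 genes of the nucleolus, picked by symbol from a list of names, of the 55449 genes in a count table of bulk RNA-seq from mouse colon. All 36 were found in the table, and each passed the filter on low counts in every comparison. The lowest expected count of any of them in any library was 59.

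Ribosomes are built in the nucleolus, where RNA polymerase I transcribes the precursor of the ribosomal RNAs. Small nucleolar ribonucleoproteins (snoRNPs) of the box C/D and box H/ACA kinds guide ribose methylation and pseudouridylation of that RNA, and separate groups of assembly factors fold and trim it into the small and the large ribosomal subunit. In the colon, dividing cells of the crypt base make most ribosomes, and loss of Apc raises Wnt signaling and with it Myc, a transcription factor known to act on many genes of ribosome biogenesis.

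All mice were male C57BL/6 of genotype Cdx2Apcf/w, with 1 floxed and 1 wild-type allele of Apc and Cre recombinase under the Cdx2 promoter, so every group carried the deletion wherever that promoter had been active. They were 6 to 8 weeks old, ate a 60% high-fat diet (HFD) and, after a short course of neomycin, streptomycin and bacitracin, were colonized with Bacteroides fragilis, 2 times a week by the labels and at another interval by the study's methods. BSHlow mice received strain 638R (BF638R bsh-), which has low activity of bile salt hydrolase (BSH), and BSHhigh mice received the same strain carrying a bsh gene from a strain with high activity (BF638R bsh+). No mice without the Apc deletion and no uncolonized mice were sequenced.

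The 23 libraries formed 6 groups. After 2 weeks, normal colon was taken from BSHlow mice (n = 4) and BSHhigh mice (n = 4). After 12 weeks, non-tumor colon was taken from BSHlow mice (n = 4) and BSHhigh mice (n = 4), and tumors from BSHlow mice (n = 4) and BSHhigh mice (n = 3). In the deposited table the header repeats names of BSHlow tumors over 3 further columns and names no BSHhigh tumor. These columns were taken as the BSHhigh tumors as a group, since a separate listing of the same values places them there, and are called a, b and c here. Every result on BSHhigh tumors rests on that assignment. Total expected counts per library ran from 12401388 to 17903008, with a median of 15874872. Levels are given in CPM, counts scaled to library size with factors from the trimmed mean of M values (TMM) over the 23 libraries.

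Apc, the gene targeted in every group, stood at 123, 112, 190.3 and 90.4 CPM in the BSHlow non-tumor libraries and at 12.3, 10.5, 11.1 and 8.75 CPM in the BSHlow tumors. In BSHhigh mice it stood at 87.7, 107, 114 and 102 CPM in non-tumor tissue and at 25.1, 28.6 and 12.5 CPM in tumors. Normal colon at 2 weeks held 69.5 to 136 CPM under BSHlow and 67.4 to 114 CPM under BSHhigh colonization. Every tumor library lay below every other library, but counts per gene do not separate the floxed from the wild-type allele, so they do not check the deletion itself. Cdx2, whose promoter drives the Cre, was at 0.26 to 1.96 CPM in BSHlow tumors, 2.43 to 27.6 CPM in BSHhigh tumors, 6.34 to 60.5 CPM in non-tumor tissue and 307 to 418 CPM in normal colon at 2 weeks. The labels do not name the stretch of colon each piece came from.

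Tumors held more RNA of the 36 genes than any other tissue. Their summed level was 2932, 3771, 3622 and 3143 CPM in BSHlow tumors and 2884, 2875 and 3127 CPM in BSHhigh tumors. Non-tumor tissue held 1792, 1815, 1991 and 1889 CPM under BSHlow and 1544, 1758, 1893 and 1873 CPM under BSHhigh colonization. Normal colon at 2 weeks held 1465, 1538, 1378 and 1657 CPM and 1284, 1568, 1545 and 1335 CPM in the same order. The lowest tumor library stood above the highest library of any other tissue, while BSHlow and BSHhigh libraries overlapped within each tissue. The group means were 3367 CPM (SD 395, n = 4) and 2962 CPM (SD 143, n = 3) in tumors, 1872 CPM (SD 89.5, n = 4) and 1767 CPM (SD 160.1, n = 4) in non-tumor tissue, and 1509.6 CPM (SD 118, n = 4) and 1433 CPM (SD 144, n = 4) at 2 weeks, BSHlow first. Ncl and Npm1 together made up 35.3% to 43.8% of the sum, in CPM and not per length.

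**Figure D1:**
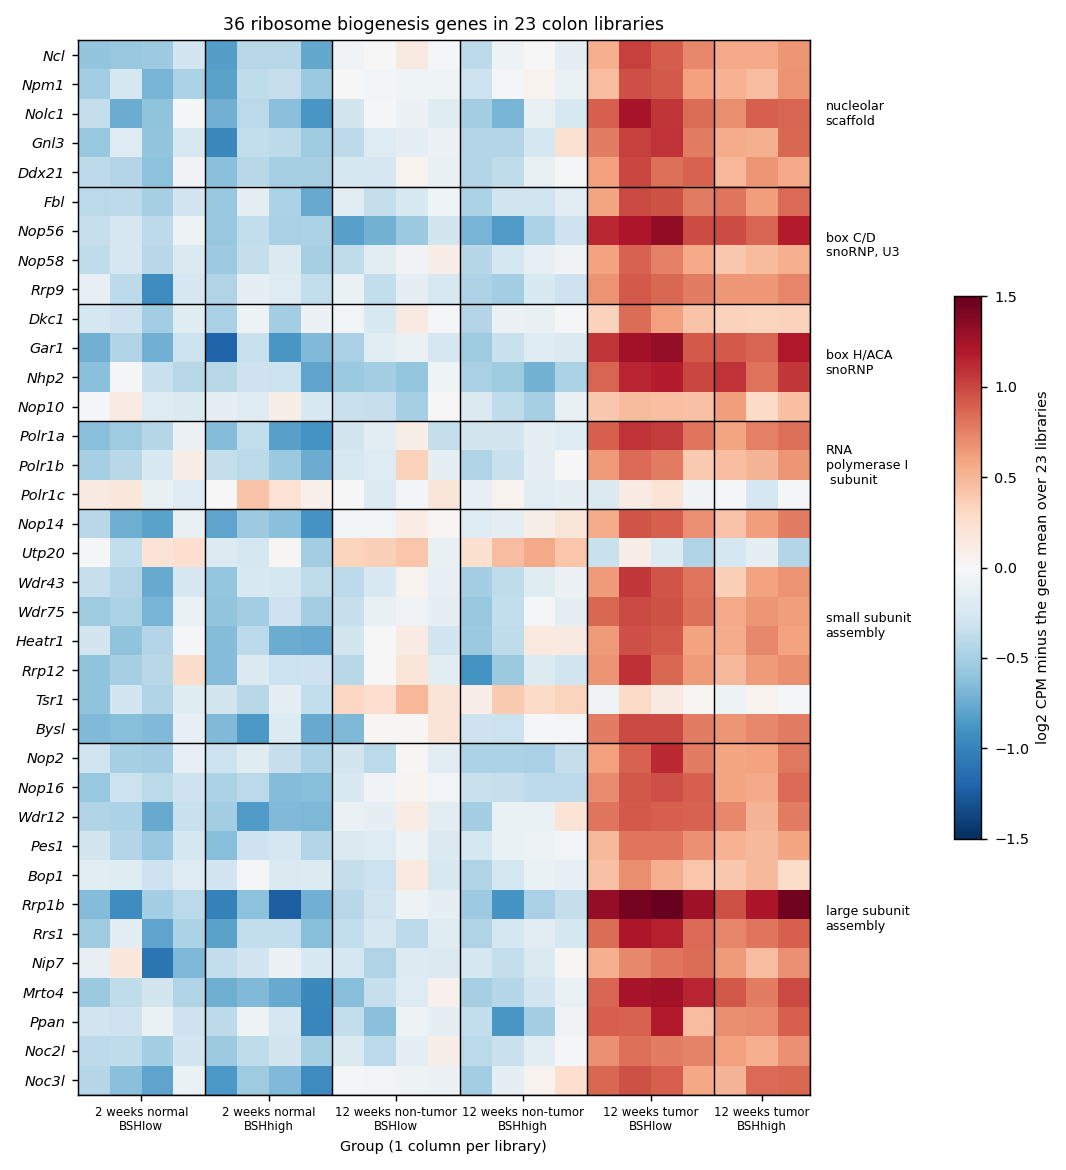
Each row is 1 of the 36 genes, grouped by role, and each column 1 of the 23 libraries; color shows log2 CPM minus the gene's mean over the 23 libraries. The tumor columns at the right are red for all roles, with Polr1c, Utp20 and Tsr1 as the exceptions.

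In BSHlow mice, 33 of the 36 genes rose in tumors over non-tumor tissue, or 91.7%, against 33.3% of all 16454 genes tested, and 2 fell, or 5.56%, against 32.2% (edgeR quasi-likelihood test, Benjamini-Hochberg adjusted p under 0.05). The 2 that fell were Utp20 and Tsr1, both small subunit factors, and Polr1c did not pass the test. The median log2 fold change of the 36 was 0.93, beside 0.04 over all genes, and the range ran from -0.48 for Utp20 to 1.73 for Nop56. Past a log2 fold change of 1 stood 15 of them, or 41.7%, against 16.7% of all genes. All 4 tumor libraries lay above all 4 non-tumor libraries for 33 genes, against 29.3% of all genes. The share that rose was thus well above the background of this comparison.

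BSHhigh mice gave nearly the same counts from other libraries: 33 of the 36 rose, or 91.7%, against 29.4% of all genes, and 2 fell, or 5.56%, against 27.2%. The same 33 genes rose and the same 2 fell as in BSHlow mice. These comparisons share no library, though they were fitted together and share an estimate of the spread. The median was 0.83, beside 0.04 over all genes, and the range ran from -0.71 for Utp20 to 1.77 for Rrp1b. Here 13 genes stood past a log2 fold change of 1, or 36.1%, against 14.6%, and 33 had all 3 tumor libraries above all 4 non-tumor libraries, against 32.2% of all genes. Scaling by library size alone moved the median of all genes up by 0.33 in BSHlow and 0.30 in BSHhigh mice, so each fold change here is relative to TMM. Under that scaling 34 of the 36 rose in each, or 94.4%, against 47% and 43.7% of all genes, with 0 and 1 lower. Past a log2 fold change of 1 it placed 32 and 27 of the 36, or 88.9% and 75%, against 24.3% and 21.5% of all genes.

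**Figure D2:**
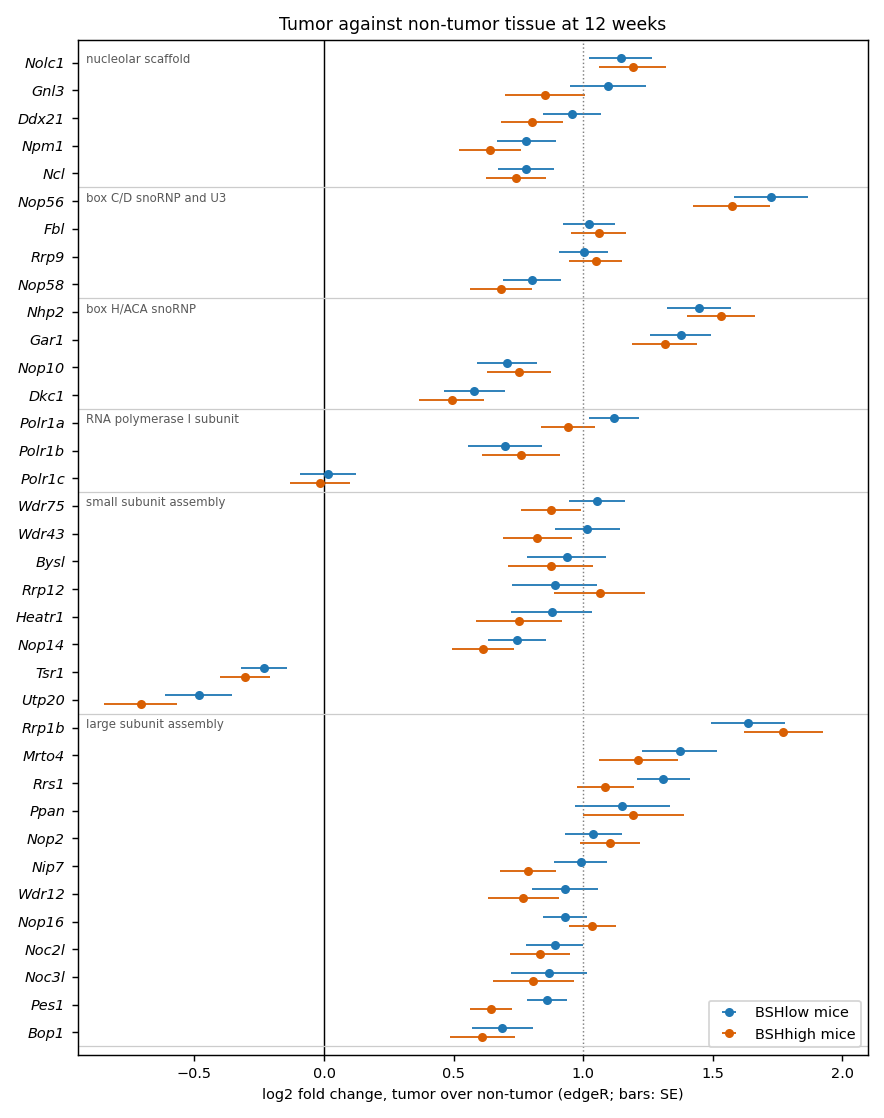
Log2 fold change of tumor over non-tumor tissue at 12 weeks for each of the 36 genes, by role, in BSHlow mice (blue) and BSHhigh mice (orange); bars are standard errors and the dotted line marks 1. Nop56 and Rrp1b stand farthest to the right, and Utp20 and Tsr1 lie left of 0 in both.

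Since most of the genes moved together, their promoters were searched for CACGTG, the E-box that Myc and its partner Max are known to bind, which reads the same on both strands. Windows of 250 bases before to 50 bases after the start were on hand for 31 of the 36 genes (RefSeq, build GRCm38.p6), and not for Npm1, Fbl, Rrp12, Rrs1 and Bop1. The motif was present for 5 of the 31 genes, or 16.1%, against 8.09% of 27025 genes with windows. Those 27025 were not limited to genes that passed the filter on low counts, as all of the 36 did, so the sets are unlike. It lay in the windows of Nop2, Pes1 and Wdr43, which rose in tumors, and in those of Utp20 and Tsr1, which fell. These 5 windows follow, with the motif in capitals, together with that of Nop56, which had the largest rise in BSHlow tumors and no match in its window.
Nop56: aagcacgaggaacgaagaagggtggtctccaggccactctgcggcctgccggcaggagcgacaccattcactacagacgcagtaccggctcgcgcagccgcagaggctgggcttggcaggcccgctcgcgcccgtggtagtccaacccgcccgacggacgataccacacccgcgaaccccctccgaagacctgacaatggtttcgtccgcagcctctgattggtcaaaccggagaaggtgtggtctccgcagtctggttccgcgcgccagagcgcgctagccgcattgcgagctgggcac
Nop2: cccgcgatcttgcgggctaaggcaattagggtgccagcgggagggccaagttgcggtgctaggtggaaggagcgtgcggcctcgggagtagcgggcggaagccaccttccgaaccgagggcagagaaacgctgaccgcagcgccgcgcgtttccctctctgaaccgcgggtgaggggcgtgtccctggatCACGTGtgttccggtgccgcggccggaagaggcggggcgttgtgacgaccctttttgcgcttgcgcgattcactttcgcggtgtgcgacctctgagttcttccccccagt
Pes1: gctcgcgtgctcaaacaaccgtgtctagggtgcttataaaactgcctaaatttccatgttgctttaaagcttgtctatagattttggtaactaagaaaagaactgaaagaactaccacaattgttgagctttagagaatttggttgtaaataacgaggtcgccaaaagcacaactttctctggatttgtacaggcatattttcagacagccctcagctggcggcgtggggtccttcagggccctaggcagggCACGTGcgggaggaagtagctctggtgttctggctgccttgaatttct
Wdr43: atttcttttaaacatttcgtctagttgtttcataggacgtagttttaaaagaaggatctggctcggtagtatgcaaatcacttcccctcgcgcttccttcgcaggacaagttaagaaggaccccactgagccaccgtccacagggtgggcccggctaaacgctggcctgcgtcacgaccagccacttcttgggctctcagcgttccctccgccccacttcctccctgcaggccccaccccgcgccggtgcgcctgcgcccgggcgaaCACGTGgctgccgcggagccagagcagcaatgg
Utp20: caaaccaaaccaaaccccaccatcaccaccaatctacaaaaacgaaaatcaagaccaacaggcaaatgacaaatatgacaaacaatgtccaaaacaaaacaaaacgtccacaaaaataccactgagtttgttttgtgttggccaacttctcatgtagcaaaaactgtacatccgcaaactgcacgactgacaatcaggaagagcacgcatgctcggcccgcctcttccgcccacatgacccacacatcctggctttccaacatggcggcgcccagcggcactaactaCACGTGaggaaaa
Tsr1: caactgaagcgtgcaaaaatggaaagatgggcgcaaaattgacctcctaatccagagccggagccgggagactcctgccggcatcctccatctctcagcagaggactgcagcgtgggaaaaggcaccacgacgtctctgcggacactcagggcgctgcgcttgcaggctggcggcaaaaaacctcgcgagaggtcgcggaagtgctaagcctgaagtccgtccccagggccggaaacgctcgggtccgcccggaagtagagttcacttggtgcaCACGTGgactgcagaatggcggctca
They are chr2:130274162-130274461 (plus strand) for Nop56, chr6:125131633-125131932 (plus) for Nop2, chr11:3963725-3964024 (plus) for Pes1, chr17:71615965-71616264 (plus) for Wdr43, chr10:88826765-88827064 (minus) for Utp20 and chr11:74897830-74898129 (plus) for Tsr1. In Nop2 the motif began 60 bases before the start. It began 2 bases after it in Pes1, 17 in Wdr43, 24 in Tsr1 and 37 in Utp20. A match describes these letters only, not a bound site.

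The nucleolar scaffold and its chaperones rose as a group, with 5 of 5 genes higher in both comparisons and medians of 0.96 in BSHlow and 0.80 in BSHhigh mice. Nolc1, a chaperone of snoRNPs, stood at 34.3, 40.5, 39.1 and 36.5 CPM in BSHlow non-tumor tissue and 77.1, 97.7, 87.2 and 74.4 CPM in BSHlow tumors, and at 29.0, 25.5, 38.3 and 35.4 CPM and then 67.1, 77.1 and 76.3 CPM in BSHhigh mice. Every tumor library was above every non-tumor library. Its log2 fold change was 1.14 (SE 0.12, edgeR adjusted p = 1.93e-06) in BSHlow mice and 1.19 in BSHhigh mice. Ncl (nucleolin), which binds nascent ribosomal RNA, stood at 389.9, 402, 445 and 395 CPM and then 589, 820.0, 758 and 666 CPM in BSHlow mice, and at 307, 383, 404 and 367 CPM and then 600.0, 599 and 641 CPM in BSHhigh mice. Its tumor libraries did not overlap the non-tumor ones either, with a log2 fold change of 0.78 (SE 0.11, edgeR adjusted p = 2.34e-05) in BSHlow mice. Npm1 (nucleophosmin), Gnl3 (nucleostemin, a nucleolar GTPase) and the RNA helicase Ddx21 had values of 0.78, 1.10 and 0.96 in BSHlow mice.

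Core proteins of the box C/D snoRNPs and of the U3 particle rose in 4 of 4 cases, with medians of 1.01 and 1.05. Nop56, a core protein around which the methylation particle forms, stood at 30.3, 32.7, 36.1 and 44.0 CPM in BSHlow non-tumor tissue and 116, 124, 134 and 105 CPM in tumors, and at 32.9, 29.6, 38.3 and 43.0 CPM and then 105, 97.4 and 121 CPM in BSHhigh mice. The tumor libraries stood far above all non-tumor libraries. Its log2 fold change was 1.73 (SE 0.14, edgeR adjusted p = 1.76e-07) in BSHlow and 1.57 in BSHhigh mice. Nop58, its paralog in the same particle, stood at 46.9, 54.6, 58.8 and 65.1 CPM and then 92.8, 112, 103 and 90.03 CPM in BSHlow mice, and at 45.1, 50.6, 55.9 and 58.6 CPM and then 80.5, 84.8 and 89.2 CPM in BSHhigh mice. The groups did not overlap, and the log2 fold change was 0.80 (SE 0.11, edgeR adjusted p = 2.49e-05) in BSHlow and 0.68 in BSHhigh mice. Fbl (fibrillarin), the methyltransferase of the particle, and Rrp9, a protein of U3, had values of 1.06 and 1.05 in BSHhigh mice. The introns of Nop56 and Nop58 host small nucleolar RNAs, and 5 of the 36 genes, Ncl, Gnl3, Nop56, Nop58 and Ppan, have exons that overlap small RNA genes on the same strand, so some of their counts could come from either. Opposite-strand overlaps touch 16 of the 36, which would matter as well if the counts were made without regard to strand. The study's methods describe a stranded mRNA preparation and the labels total RNA, and the strand setting of the counting is not stated.

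All 4 proteins of the box H/ACA snoRNP rose, with medians of 1.04 and 1.03. Nhp2, one of the small partner proteins, stood at 23.7, 24.3, 23.3 and 33.3 CPM in BSHlow non-tumor tissue and 63.9, 76.6, 78.9 and 69.6 CPM in tumors, and at 24.8, 24.03, 21.3 and 25.1 CPM and then 74.0, 61.1 and 72.6 CPM in BSHhigh mice. Tumor libraries were all higher, with a log2 fold change of 1.45 (SE 0.12, edgeR adjusted p = 2.36e-07) in BSHlow and 1.53 in BSHhigh mice. Dkc1 (dyskerin), the pseudouridine synthase itself, stood at 30.8, 27.1, 34.8 and 31.2 CPM and then 40.1, 56.3, 48.4 and 42.7 CPM in BSHlow mice, and at 23.3, 29.9, 29.2 and 31.2 CPM and then 40.3, 39.9 and 40.3 CPM in BSHhigh mice. It had the smallest rise of the 4, without overlap, at 0.58 (SE 0.12, edgeR adjusted p = 0.000531) in BSHlow and 0.49 in BSHhigh mice. The other partners, Gar1 and Nop10, had values of 1.38 and 0.71 in BSHlow mice.

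Among the subunits of RNA polymerase I, 2 of 3 rose in both comparisons, with medians of 0.70 and 0.76. Polr1a, the largest subunit, stood at 21.5, 23.1, 27.6 and 20.4 CPM in BSHlow non-tumor tissue and 48.5, 55.3, 53.9 and 45.6 CPM in tumors, and at 21.4, 21.5, 23.8 and 22.8 CPM and then 39.2, 44.1 and 46.1 CPM in BSHhigh mice. No tumor library overlapped, and the log2 fold change was 1.12 (SE 0.10, edgeR adjusted p = 2.88e-07) in BSHlow and 0.94 in BSHhigh mice. Polr1c, a subunit shared with RNA polymerase III, stood at 45.0, 39.2, 43.8 and 51.0 CPM and then 38.7, 49.2, 51.9 and 43.6 CPM in BSHlow mice, and at 41.5, 46.8, 40.01 and 40.9 CPM and then 44.5, 37.7 and 44.3 CPM in BSHhigh mice. Here the groups overlapped, at 0.02 (SE 0.11, edgeR adjusted p = 0.904) in BSHlow and -0.01 (SE 0.12, edgeR adjusted p = 0.926) in BSHhigh mice. With library size alone Polr1c passed the test, at 0.35 (edgeR adjusted p = 0.00311) in BSHlow and 0.29 (edgeR adjusted p = 0.0178) in BSHhigh mice. Polr1b, the other large subunit, had a value of 0.70 in BSHlow mice.

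Small subunit assembly split: 6 of 8 factors rose and 2 fell in both comparisons, with medians of 0.88 and 0.79. Wdr75, a factor that joins early assembly to transcription of ribosomal RNA, stood at 19.5, 22.97, 23.9 and 22.7 CPM in BSHlow non-tumor tissue and 45.3, 49.4, 48.1 and 44.2 CPM in tumors, and at 16.8, 19.2, 24.3 and 22.7 CPM and then 37.0, 39.4 and 38.3 CPM in BSHhigh mice. Tumors were higher without overlap, at 1.05 (SE 0.11, edgeR adjusted p = 1.25e-06) in BSHlow and 0.87 in BSHhigh mice. Its partners in that complex, Wdr43 and Heatr1, had values of 1.02 and 0.88 in BSHlow mice, and Nop14, Rrp12 and Bysl, which act along the path of the small subunit from nucleolus to cytoplasm, had 0.74, 0.89 and 0.94.

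Utp20, a large scaffold protein of the small subunit processome, stood at 61.8, 62.8, 65.5 and 45.4 CPM in BSHlow non-tumor tissue and 38.9, 52.7, 42.6 and 35.9 CPM in tumors, and at 57.9, 67.9, 72.6 and 65.3 CPM and then 40.8, 44.7 and 36.3 CPM in BSHhigh mice. The groups overlapped in BSHlow mice through non-tumor library 4 and tumor library 2, and did not overlap in BSHhigh mice. The log2 fold change was -0.48 (SE 0.13, edgeR adjusted p = 0.00452) and -0.71 (SE 0.14, edgeR adjusted p = 0.000761), and with library size alone the call in BSHlow mice was lost, at -0.16 (edgeR adjusted p = 0.322). Tsr1, a late small subunit factor, stood at 80.6, 77.6, 92.3 and 74.4 CPM and then 62.6, 79.4, 71.4 and 66.3 CPM in BSHlow mice, and at 69.8, 85.6, 79.8 and 82.4 CPM and then 61.9, 67.3 and 64.5 CPM in BSHhigh mice. Only BSHhigh mice were without overlap. Its log2 fold change was -0.23 (SE 0.09, edgeR adjusted p = 0.0356) and -0.30 (SE 0.10, edgeR adjusted p = 0.0164). The fall of Tsr1 in BSHlow mice was lost without non-tumor library 1 (edgeR adjusted p = 0.0542) or 3 (0.121) and without tumor library 1 (0.102) or 4 (0.0808), and in BSHhigh mice without tumor library a (0.059) or c (0.0509). Further alternatives also lost the fall of Tsr1 in BSHlow mice: upper-quartile factors (edgeR adjusted p = 0.0606), no filter (0.106), the 2 groups alone (0.0527) and a replicate block (0.0810). With library size alone Tsr1 stood at 0.10 (edgeR adjusted p = 0.411) in BSHlow mice and fell in neither, with an edgeR adjusted p of 0.993 in BSHhigh mice.

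Large subunit assembly rose in 12 of 12 factors, with medians of 0.96 and 0.93. Rrp1b, a nucleolar factor of the large subunit, stood at 8.08, 8.76, 10.2 and 9.88 CPM in BSHlow non-tumor tissue and 27.0, 29.2, 33.9 and 26.2 CPM in tumors, and at 7.44, 5.85, 7.70 and 8.46 CPM and then 21.002, 25.2 and 29.5 CPM in BSHhigh mice. Tumor libraries were all well above the others, with a log2 fold change of 1.64 (SE 0.14, edgeR adjusted p = 2.9e-07) in BSHlow and 1.77 in BSHhigh mice. Bop1, which forms a complex with Pes1 and Wdr12, stood at 32.5, 33.4, 46.2 and 35.3 CPM and then 56.4, 67.3, 60.9 and 55.5 CPM in BSHlow mice, and at 30.6, 34.7, 38.9 and 38.3 CPM and then 55.2, 58.4 and 50.3 CPM in BSHhigh mice. It rose least of the 12 without overlap, at 0.69 (SE 0.12, edgeR adjusted p = 0.000138) in BSHlow and 0.61 in BSHhigh mice. Pes1 and Wdr12 had values of 0.86 and 0.93 in BSHlow mice. Nop2, an RNA methyltransferase, had 1.04, and Mrto4, which holds the place of a stalk protein on the maturing subunit, had 1.37. The further factors Nop16, Rrs1, Nip7, Ppan, Noc2l and Noc3l had 0.93, 1.31, 0.99, 1.15, 0.89 and 0.87.

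Tissue makeup differed between tumors and non-tumor tissue as well. Beside the marker counts here and below, 33.3% of all genes rose and 32.2% fell in BSHlow tumors. In BSHhigh tumors 29.4% rose and 27.2% fell. Smooth muscle markers fell in 10 of 10 cases in both comparisons, and their summed level was 2179.6, 9629, 4582 and 1793 CPM in BSHlow non-tumor tissue against 329.8, 302, 374 and 319 CPM in tumors. In BSHhigh mice it was 4937, 3848, 4485 and 3757 CPM against 468, 341 and 291 CPM. The most abundant was Tagln in non-tumor tissue and Acta2 in tumors. In the same order of libraries, the 36 genes summed to 1792, 1815, 1991 and 1889 CPM in BSHlow non-tumor tissue. In BSHhigh non-tumor tissue they summed to 1544, 1758, 1893 and 1873 CPM. What part muscle content has in these levels was not tested.

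Epithelial markers summed to 11325, 10326, 13799 and 11849 CPM in BSHlow non-tumor tissue and 6182, 9215, 9541 and 5587 CPM in tumors, and to 11362, 11751, 10987 and 11156 CPM and then 9305, 6807 and 7128 CPM in BSHhigh mice, with Krt8 most abundant in each group. Of 11, 2 rose and 9 fell in BSHlow tumors, and 2 rose and 7 fell in BSHhigh tumors. Mature colonocyte markers fell in 10 of 10 and 9 of 10 cases, from 3123, 2897, 5073 and 6623 CPM to 197, 219.5, 151 and 89.2 CPM in BSHlow mice and from 3669, 3174, 3131 and 2941 CPM to 948, 334 and 249 CPM in BSHhigh mice. Their most abundant gene was Car2 in BSHlow tissues, Car4 in BSHhigh non-tumor tissue and Krt20 in BSHhigh tumors. Per 1000 CPM of epithelial markers, the 36 genes summed to 158, 176, 144 and 159 in BSHlow non-tumor tissue and 474, 409, 379.6 and 563 in tumors, and to 136, 149.6, 172 and 168 and then 309.9, 422 and 439 in BSHhigh mice. These ratios could not overlap and add no separate evidence. In both kinds of mice every tumor library had a higher sum of the 36 and a lower sum of the markers than every non-tumor library.

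Other marker lists moved in both directions. Endothelial markers rose in 6 of 8 cases in each comparison, with sums of 97.3 to 155 CPM in BSHlow non-tumor tissue and 259.5 to 302 CPM in tumors, and 79.1 to 163 CPM and then 277 to 319 CPM in BSHhigh mice, led by Pecam1 in non-tumor tissue. Neuron and glia markers fell in 7 of 8 and 6 of 8 cases, from 29.4 to 49.7 CPM to 5.33 to 11.2 CPM in BSHlow mice and from 28.6 to 51.1 CPM to 20.5 to 61.9 CPM, with overlap, in BSHhigh mice, with Sox10 at 0 in BSHlow tumors. B and plasma cell markers, led by Jchain, fell in 7 of 8 cases in each, to 1.12 to 9.02 CPM in BSHlow and 91.4 to 122 CPM in BSHhigh tumors. Myeloid markers, led by Lyz2, rose in 5 and fell in 1 of 9 cases in BSHlow tumors, and rose in 3 and fell in 0 in BSHhigh tumors. Fibroblast markers, led by Col3a1, rose in 3 and fell in 2 of 8 cases in BSHlow tumors, and rose in 4 and fell in 1 in BSHhigh tumors. T cell markers rose in 1 and fell in 2 of 8 cases in BSHlow tumors, with a median of -1.13, and rose in 2 and fell in 0 in BSHhigh tumors, with a median of 0.89. Some of these shares that rose were near those of all genes, 33.3% in BSHlow and 29.4% in BSHhigh tumors. They were 37.5% for fibroblast markers in BSHlow tumors, and 33.3% for myeloid and 25% for T cell markers in BSHhigh tumors. The part of these lists in the result was not tested. In bulk tissue, a larger share of cells rich in these transcripts and more such RNA per cell cannot be told apart.

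**Figure D3:**
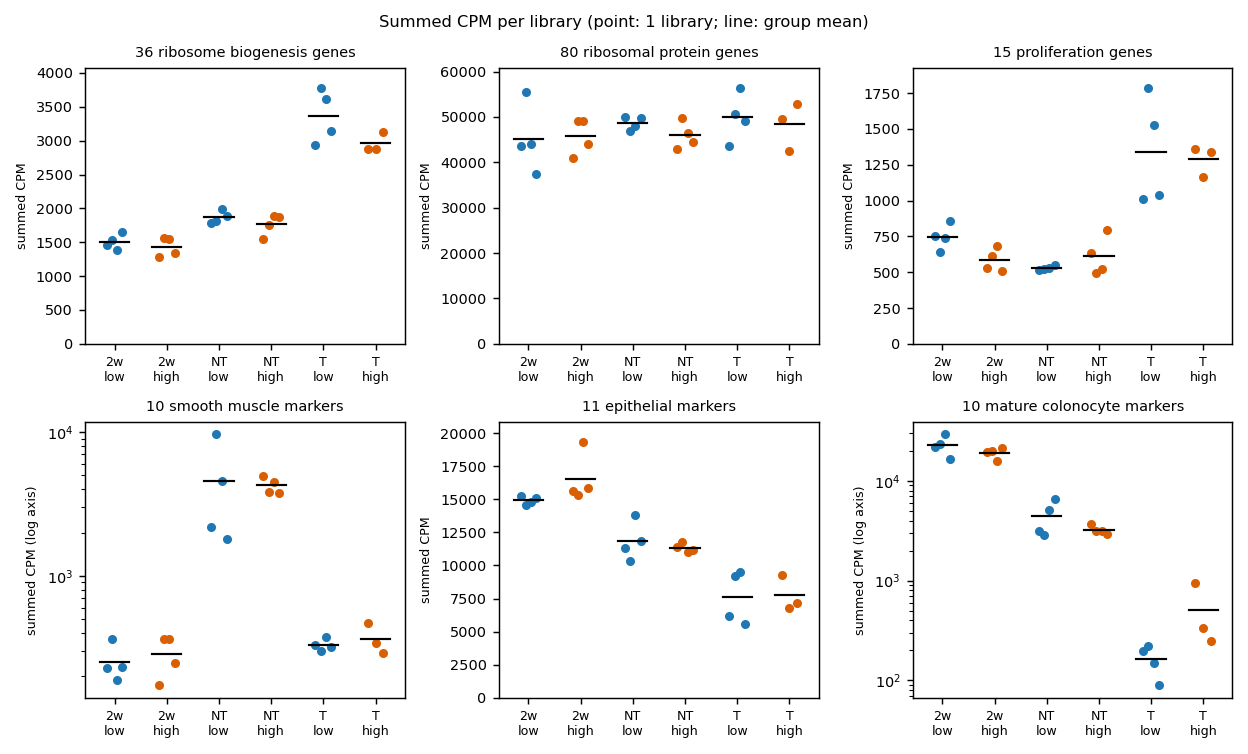
Summed CPM in each library (points; blue BSHlow, orange BSHhigh) with group means (lines), by tissue: normal colon at 2 weeks (2w), non-tumor (NT) and tumor (T) at 12 weeks. The 36 genes are highest in tumors, where muscle and mature colonocyte markers (log axes) are lower than in non-tumor tissue, while the ribosomal protein genes overlap between all groups.

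Other genes of the pathway were counted by list. Beside these counts, 33.3% of all genes rose and 32.2% fell in BSHlow tumors, and 29.4% rose and 27.2% fell in BSHhigh tumors. Of 43 other small subunit factors, 36 rose and 1 fell in BSHlow tumors (median 0.61), and 35 rose and 1 fell in BSHhigh tumors (median 0.59). Dimt1, an RNA dimethylase, and Tbl3, a processome protein, had log2 fold changes of 1.66 and 1.44 in BSHlow mice. Utp11, also of the processome, fell by 0.47 (edgeR adjusted p = 0.00015) in BSHlow mice, while Ddx47, a helicase, did not pass the test at -0.12 (edgeR adjusted p = 0.205). With library size alone the call for Utp11 in BSHlow mice was lost, at -0.14 (edgeR adjusted p = 0.168), and Ddx47 stood at 0.21 (edgeR adjusted p = 0.0129).

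Of 46 other large subunit factors, 40 rose and 3 fell in BSHlow tumors (median 0.68), and 38 rose and 2 fell in BSHhigh tumors (median 0.62). Lyar and Pelp1 had values of 1.38 and 1.28 in BSHlow mice. Eif6, which keeps the large subunit from joining too early, fell by 0.66 (edgeR adjusted p = 0.000858) in BSHlow and by 0.46 (edgeR adjusted p = 0.0201) in BSHhigh mice. In BSHhigh mice the call for Eif6 was lost without tumor library b (edgeR adjusted p = 0.108) or c (0.0748) and with library size alone (0.288). Nop53 fell by 0.49 (edgeR adjusted p = 0.00425) in BSHlow mice and stood at -0.21 (edgeR adjusted p = 0.219) in BSHhigh mice. Library size alone gave Nop53 -0.17 (edgeR adjusted p = 0.293) and 0.09 in that order.

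Of 13 further genes of RNA polymerase I transcription, 7 rose and 3 fell in BSHlow tumors (median 0.47), and 7 rose and 2 fell in BSHhigh tumors (median 0.34). The subunit Polr1e and the initiation factor Rrn3 had values of 1.36 and 1.16 in BSHlow mice. Ttf1, the termination factor, fell by 0.50 (edgeR adjusted p = 0.00129) in BSHlow mice, and Taf1c, of the selectivity factor, fell by 0.42 (edgeR adjusted p = 0.0335). Library size alone ended the calls for Ttf1 (edgeR adjusted p = 0.192) and Taf1c (0.651) in BSHlow mice. That for Taf1c was also lost with upper-quartile factors (0.0601) and with no filter (0.0664). The same held without BSHlow non-tumor library 1 (0.0713), 2 (0.06) or 3 (0.0892) or tumor library 4 (0.0889).

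Of 9 snoRNP assembly factors tested, 7 rose and 0 fell in both comparisons (medians 0.63 and 0.56). The helicases Ruvbl1 and Ruvbl2 had values of 1.10 and 0.98 in BSHlow mice, while Naf1 and Pih1d1 did not pass the test there, at 0.35 (edgeR adjusted p = 0.0863) and 0.09 (edgeR adjusted p = 0.425). With library size alone both passed, Naf1 at 0.67 (edgeR adjusted p = 0.00212) and Pih1d1 at 0.42 (edgeR adjusted p = 0.000728), and Naf1 also did with upper-quartile factors (0.0498) or without BSHlow tumor library 1 (0.0353). In the RNA exosome and its partners, which trim the precursor, 11 of 15 rose and 2 fell in BSHlow tumors (median 0.52), and 9 rose and 2 fell in BSHhigh tumors (median 0.52). The nuclease Dis3 and the subunit Exosc1 had values of 1.34 and 1.01 in BSHlow mice. Exosc6 fell by 2.34 (edgeR adjusted p = 0.00033) and C1d by 0.46 (edgeR adjusted p = 0.000768), of which C1d was not called with library size alone (edgeR adjusted p = 0.238).

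Cytosolic ribosomal proteins, the structural parts of the ribosome, did not follow under TMM scaling. Of 80 genes, 10 rose and 9 fell in BSHlow tumors (median 0.02), and 9 rose and 3 fell in BSHhigh tumors (median 0.09), shares below the background of all genes. Their summed level was 50083, 46898, 47924 and 49712 CPM in BSHlow non-tumor tissue and 43542, 50677, 56278 and 49086 CPM in tumors. In BSHhigh mice it was 43009.5, 49779, 46429 and 44532 CPM against 49637, 42587 and 52912 CPM. The libraries overlapped in both. Rpl27 and Rpl7 had log2 fold changes of 0.50 and 0.48 in BSHlow mice, and Rps27 and Rpl9 fell by 0.50 and 0.48. The result depended on scaling: for the cytosolic ribosomal proteins, library size alone gave 57 of 80 higher and 0 lower in BSHlow tumors (median 0.35) and 58 higher and 0 lower in BSHhigh tumors (median 0.39), shares above the 47% and 43.7% of all genes under that scaling, and DESeq2 turned the BSHlow median to -0.01. Without BSHlow tumor library 3 the median was -0.05, and without BSHhigh tumor library b 20 genes rose. Without other single libraries 5 to 11 rose.

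Myc and its relatives moved in both directions, with 5 of 12 genes higher and 5 lower in BSHlow tumors and 4 higher and 5 lower in BSHhigh tumors. The shares higher, 41.7% and 33.3%, were near the 33.3% and 29.4% of all genes, of which 32.2% and 27.2% fell. Movement in both directions is thus not particular to this list. Myc stood at 22.6, 20.6, 25.4 and 29.5 CPM in BSHlow non-tumor tissue and 81.9, 94.9, 98.7 and 68.7 CPM in tumors, and at 21.3, 16.3, 20.6 and 21.6 CPM and then 55.5, 71.3 and 73.0 CPM in BSHhigh mice. Tumors were higher without overlap, at 1.79 (SE 0.15, edgeR adjusted p = 2.01e-07) in BSHlow and 1.73 in BSHhigh mice. Mycl had 2.54 and 2.92, and Mxd3 1.42 and 1.38. Mnt, a repressor that pairs with Max, had 0.58 and 0.44. Mycn rose in BSHlow mice at 0.98 (edgeR adjusted p = 0.0303) but not with limma-voom (adjusted p = 0.0747), nor, with edgeR, in a replicate block (0.0590) or without BSHlow non-tumor library 2 (0.059), 3 (0.0557) or 4 (0.0744) or tumor library 1 (0.0743) or 2 (0.145).

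Mxd1, a repressor that competes with Myc for Max and is known for its rise in maturing colon cells, stood at 604, 619, 546 and 433 CPM in BSHlow non-tumor tissue and 76.9, 74.0, 76.7 and 64.1 CPM in tumors. It fell without overlap, by 2.93 on the log2 scale (SE 0.25, edgeR adjusted p = 2.01e-07) in BSHlow and by 1.97 in BSHhigh mice. Max itself fell by 1.32 and 1.10, Mlx by 1.76 and 1.47, Mlxip by 1.23 and 1.07, and Mxd4 by 0.46 and 0.78, each BSHlow first. Mxi1 and Mga did not pass the test in either, at 0.00 and 0.22 in BSHlow mice (edgeR adjusted p = 0.99 and 0.0603). With library size alone Mxi1 (0.33) and Mga (0.55) were called higher in BSHlow mice and Mxd4 was not called (edgeR adjusted p = 0.494). Mga was also called higher there with upper-quartile factors (edgeR adjusted p = 0.0249) and without BSHlow tumor library 4 (0.0164). In BSHhigh mice library size alone called Mga higher at 0.39 (edgeR adjusted p = 0.0114).

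Proliferation genes rose in 15 of 15 cases in both comparisons, against 33.3% and 29.4% of all genes, with medians of 1.48 and 1.16. Their summed level was 515, 526, 530.2 and 549 CPM in BSHlow non-tumor tissue and 1008, 1782, 1530.5 and 1039.6 CPM in tumors, and 636, 494, 522 and 795 CPM and then 1362, 1166 and 1341 CPM in BSHhigh mice, without overlap. Top2a and Bub1 had values of 2.01 and 1.87 in BSHlow mice, and Mki67 and Pcna 0.85 and 0.80. In BSHhigh mice Mki67 had 0.69 (edgeR adjusted p = 0.0423), which was lost when any 1 library other than non-tumor library 4 was left out. What part a larger share of dividing cells has in the rise of the 36 genes was not tested.

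**Figure D4:**
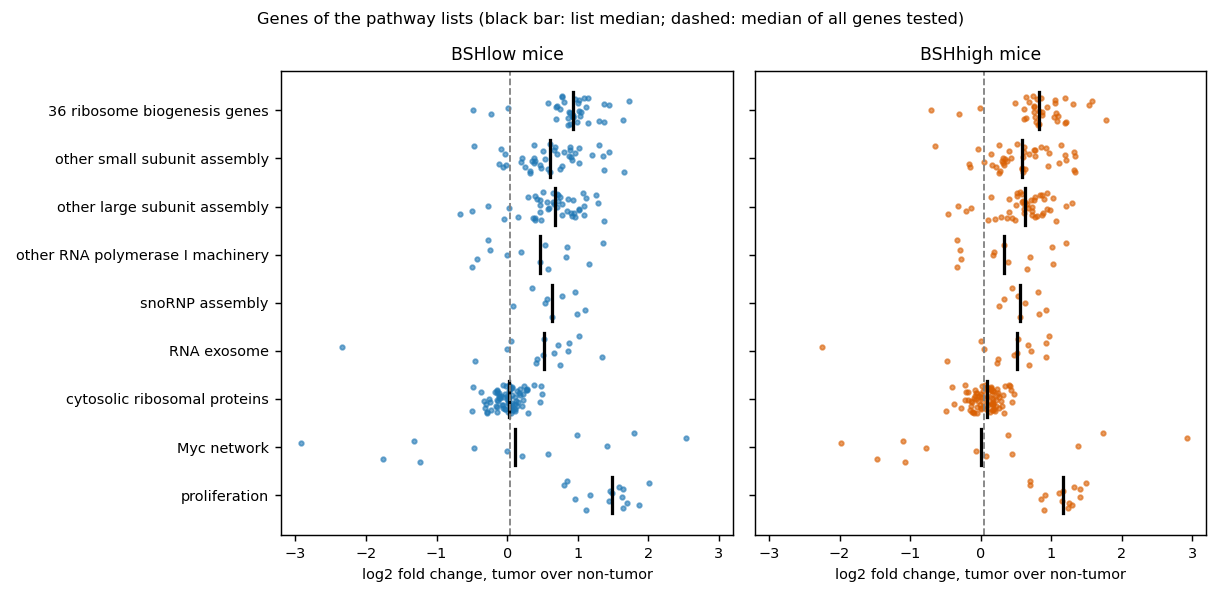
Log2 fold change of tumor over non-tumor tissue for each gene (points) of the 36 and of the 8 pathway lists, in BSHlow mice (left) and BSHhigh mice (right); black bars are list medians and the dashed line is the median of all genes tested. Ribosomal protein genes center near the dashed line, and every other list of ribosome assembly has its median to the right.

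Whether the tumor difference depended on colonization was tested as an interaction. It was called for 0 of the 36 genes, against 0.991% of 16454 genes (edgeR), with 0 at an unadjusted p under 0.05, against 9.6% of all genes. DESeq2 called 0 of the 36, against 2.55% of all genes, and limma-voom 0, against 0%, which holds no information about the 36. The values ran from -0.24 for Gnl3 to 0.17 for Rrp12, with standard errors of 0.11 to 0.27. Their median was -0.08, beside 0.03 over all genes. Below 0 lay 25 of the 36, or 69.4%, against 46.1% of all genes, and 21 to 29 when 1 library was left out. The 36 share the same libraries, so the 25 are not separate observations. The lowest adjusted p was 0.597, for Pes1 at -0.22 (edgeR, Benjamini-Hochberg). Leaving out 1 library moved the median between -0.16 and -0.02.

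BSHhigh tumors were compared with BSHlow tumors directly, in libraries that the tumor comparisons above also use. None of the 36 passed the test: 0 were called, against 0.509% of 15325 genes (edgeR), with 0 by limma-voom, against 0.281%, and 1 by DESeq2, or 2.78%, against 4.84% of all genes by that tool. The edgeR calls over all genes, 72 higher and 6 lower, depended on the libraries and the fit. They were 0 without BSHlow tumor library 1, 3 or 4, and 3 higher and 0 lower without library 2. Without BSHhigh tumor library a they were 6 higher and 0 lower, and without b 1 higher and 0 lower. Without BSHhigh tumor library c they were 243 higher and 11 lower. With the 4 groups of 12 weeks in the fit they were 612 higher and 26 lower. In each of these fits 0 of the 36 were called. At an unadjusted p under 0.05 stood 5 of the 36, Wdr75, Wdr43, Polr1a, Nop58 and Ddx21, or 13.9%, which is close to the 12.7% of all genes. That closeness depended on single libraries: without BSHlow tumor library 1 the count was 10, or 27.8%, against 14.4% of all genes, and without library 2 it was 1, or 2.78%, against 11.1%. With library size alone it was 8, or 22.2%, against 12.5%. The values nonetheless lay to one side: 35 of the 36 were below 0, or 97.2%, against 54.5% of all genes, with a median of -0.18, beside -0.03. Nop10 alone lay above 0, at 0.01. The genes share the same 7 libraries and move together between them, so the 35 are not separate observations.

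Wdr75 came closest, at 45.3, 49.4, 48.1 and 44.2 CPM in BSHlow tumors and 37.0, 39.4 and 38.3 CPM in BSHhigh tumors. The groups did not overlap, at -0.30 (SE 0.08, edgeR adjusted p = 0.128, DESeq2 adjusted p = 0.0239). Over the alternatives tried, its adjusted p ran from 0.0239 to 0.438. All BSHhigh tumor libraries also lay below all BSHlow ones for Nop58 and Wdr12, which makes 3 of the 36, or 8.33%, against 3.89% of all genes. Beside this, 2 of 9 mature colonocyte markers tested and Jchain, of the B and plasma cell markers, rose in BSHhigh over BSHlow tumors (edgeR). These marker calls were lost without BSHlow tumor library 1, 3 or 4, where edgeR called 0 genes. Few calls of any gene were left without BSHlow tumor library 2 (3 higher) or BSHhigh tumor library a (6 higher) or b (1 higher). T cell markers had 0 of 8 called (edgeR), with a median of 1.90 and sums of 42.6 to 55.0 CPM against 11.9 to 27.6 CPM, without overlap, and 0 of 15 proliferation genes passed the test (edgeR), with a median of -0.08. Their part in the values was not tested.

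In non-tumor tissue at 12 weeks, BSHhigh against BSHlow mice gave 0 calls among the 36, against 0% of 14933 genes (edgeR), with 0 by limma-voom, against 0% of all genes, and 0 by DESeq2, against 1.13%. Since edgeR and limma-voom called no gene of the table, their 0 holds no information about the 36, and the 0 of DESeq2 is near its share of all genes. At an unadjusted p under 0.05 stood 2, or 5.56%, against 9.22% of all genes: Nop16 at -0.31 and Nop2 at -0.26. Nop16 stood at 21.4, 24.1, 25.8 and 24.4 CPM under BSHlow and 19.8, 19.7, 19.1 and 19.01 CPM under BSHhigh colonization, without overlap. Values were below 0 for 31 of 36, or 86.1%, against 52.8% of all genes, with a median of -0.08, beside -0.01. The 31 come from the same libraries and are not separate observations. Leaving out 1 library moved the 31 between 23 and 33 and the median between -0.15 and -0.03.

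Normal colon at 2 weeks gave 0 calls among the 36 as well, against 0.00727% of 13752 genes (edgeR), with 0 by limma-voom, against 0.00727%, and 0 by DESeq2, against 0.385%. These zeros are near the shares of all genes. At an unadjusted p under 0.05 stood 2, or 5.56%, against 6.8% of all genes: Mrto4 at -0.37 and Nop56 at -0.22. Mrto4 stood at 12.8, 14.5, 15.5 and 13.7 CPM under BSHlow and 11.4, 11.9, 11.1 and 9.6 CPM under BSHhigh colonization, without overlap. Below 0 lay 28 of 36, or 77.8%, against 50.5% of all genes, with a median of -0.11, beside -0.00. Here too the genes share their libraries, and the 28 are not separate observations. Leaving out 1 library moved the 28 between 24 and 34 and the median between -0.17 and -0.06.

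**Figure D5:**
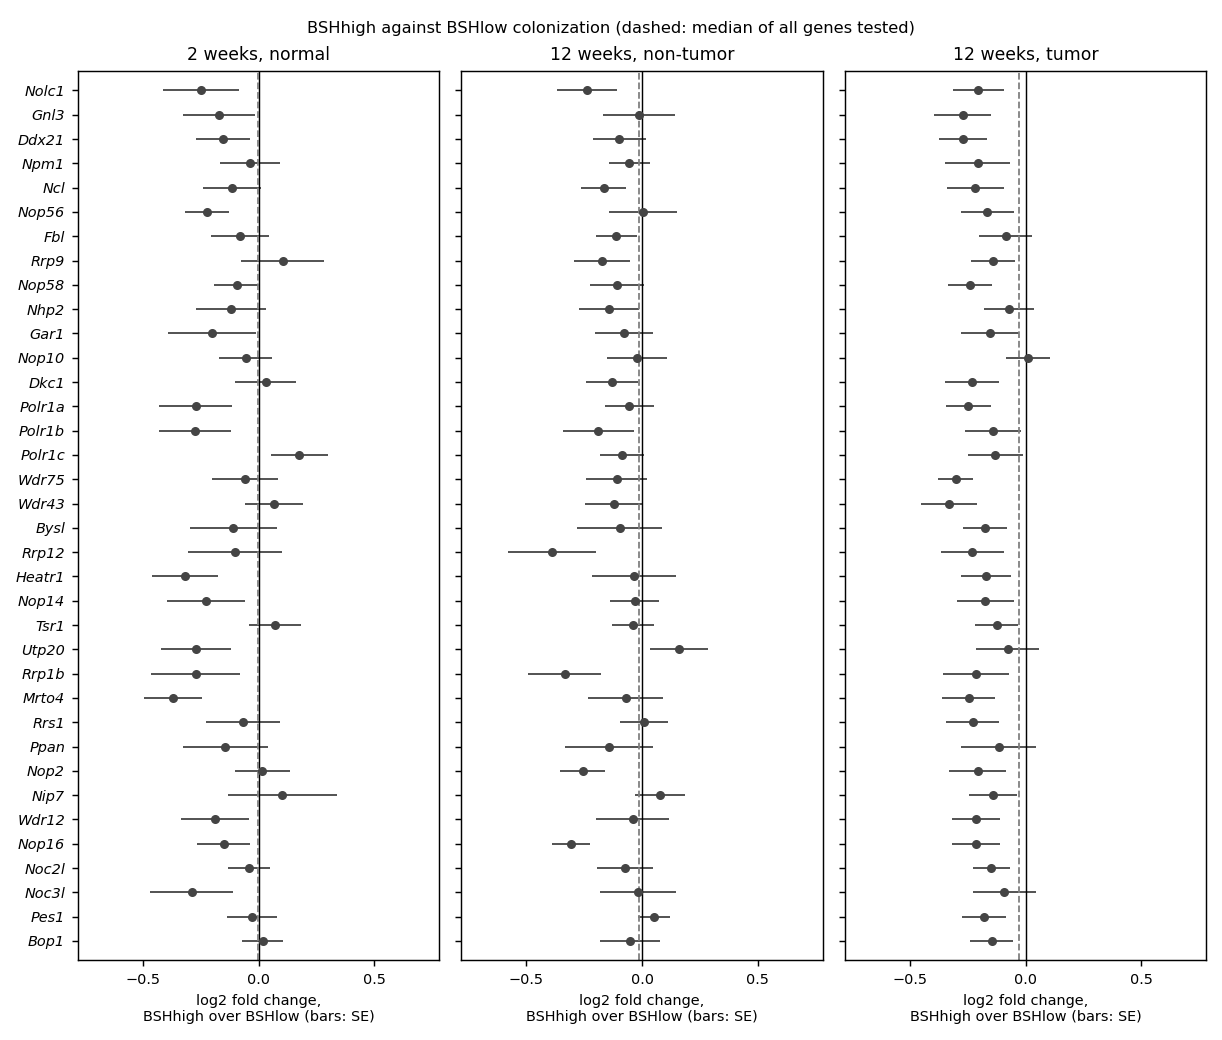
Log2 fold change of BSHhigh over BSHlow colonization for each of the 36 genes in normal colon at 2 weeks, non-tumor tissue and tumors; bars are standard errors and dashed lines mark the median of all genes. Most points lie slightly left of 0 in each panel, and 0 of the 36 passed the adjusted edgeR test in any. Points within a panel share the same libraries and are not separate observations.

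Time on diet and colonization was compared as non-tumor tissue at 12 weeks over normal colon at 2 weeks, which share their libraries with the comparisons above and also differ in age and in the tissue label. In BSHlow mice 6 of the 36 rose, or 16.7%, against 25.6% of 15532 genes, and 1 fell, or 2.78%, against 23.5% (edgeR, adjusted p under 0.05). The 6 were Ncl, Npm1, Tsr1, Nop14, Nop16 and Wdr12. In BSHhigh mice 12 rose, or 33.3%, against 27% of all genes, and 0 fell, against 22.7%: Ncl, Npm1, Gar1, Polr1a, Nop14, Utp20, Heatr1, Tsr1, Wdr12, Pes1, Mrto4 and Noc3l. At an unadjusted p under 0.05 stood 12 and 16 of the 36, or 33.3% and 44.4%, against 55.4% and 55.9% of all genes. When 1 library was left out, the 12 moved between 7 and 19 and the 16 between 11 and 19. Library size alone gave 27 and 26 of the 36, against 8668 and 9171 of the 15532 genes. By adjusted p DESeq2 called 1 lower in BSHhigh mice. The share that rose was below the background in BSHlow mice and somewhat above it in BSHhigh mice. Values were below 0 for 5 and 9 of the 36, or 13.9% and 25%, against 50% and 48.1% of all genes, though genes measured in the same libraries are not separate observations. Medians were 0.21 and 0.27, beside 0.00 and 0.03 over all genes, and 5 genes, Ncl, Nop14, Npm1, Tsr1 and Wdr12, rose in both. The call for Wdr12 in BSHlow mice was lost without any 1 of 3 libraries and in a replicate block (edgeR adjusted p = 0.106), and that for Gar1 in BSHhigh mice without any 1 of 6 libraries. In BSHhigh mice Heatr1, Pes1 and Mrto4 were also lost without at least 1 single library. The replicate block also ended the calls for Nop16 in BSHlow mice (edgeR adjusted p = 0.0596) and for Gar1 (0.0595), Heatr1 (0.0875) and Mrto4 (0.0519) in BSHhigh mice.

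Tsr1 rose most clearly with time in BSHlow mice, from 42.8, 53.5, 47.7 and 57.3 CPM at 2 weeks to 80.6, 77.6, 92.3 and 74.4 CPM at 12 weeks. In BSHhigh mice it went from 54.1, 48.9, 59.5 and 50.3 CPM to 69.8, 85.6, 79.8 and 82.4 CPM. Neither overlapped, at 0.68 (SE 0.11, edgeR adjusted p = 9.53e-05) and 0.59 (SE 0.10, edgeR adjusted p = 0.00033). The fall of Tsr1 in tumors, called under TMM scaling, was lost in several alternatives given above. Its tumor libraries, at 61.9 CPM and above, were all higher than those of normal colon at 2 weeks. Nop56 was the 1 gene that fell, by 0.32 (SE 0.13, edgeR adjusted p = 0.0464) in BSHlow mice, a call lost without any 1 of 6 libraries.

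Scaling changed the counts: library size alone moved the median of all genes by 0.23 in BSHlow and 0.28 in BSHhigh mice, and gave 22 and 25 of the 36 as higher, or 61.1% and 69.4%, against 36.7% and 42.1% of all genes. Without BSHlow normal library 4, 12 rose in BSHlow mice, or 33.3%, against 24.9% of all genes. Without BSHhigh non-tumor library 4, 9 rose in BSHhigh mice, or 25%, against 24.2%. The share of the 36 that rose with time thus moved against that of all genes with the scaling and with single libraries, in both kinds of mice. Under TMM scaling 25.6% and 27% of all genes rose with time and 23.5% and 22.7% fell, BSHlow first, beside which the marker lists stand. Smooth muscle markers rose in 10 of 10 and 9 of 10 cases and fibroblast markers in 8 of 8 in both. Proliferation genes fell in 8 of 15 cases in BSHlow mice and in 0 of 15 in BSHhigh mice (edgeR). Endothelial markers rose in 5 and 8 of 8 cases, and neuron and glia markers in 7 and 8 of 8, BSHlow first. B and plasma cell markers rose in 7 and 5 of 8, and myeloid markers in 5 and 8 of 9. T cell markers rose in 2 and fell in 1 of 8 in BSHlow mice, and rose in 1 and fell in 4 in BSHhigh mice. Epithelial markers fell in 6 of 11 in both. Muscle sums went from 230.3, 363, 188 and 232 CPM at 2 weeks to 2179.6, 9629, 4582 and 1793 CPM at 12 weeks in BSHlow mice, and from 174, 363, 363 and 249 CPM to 4937, 3848, 4485 and 3757 CPM in BSHhigh mice. Mylk was the most abundant at 2 weeks. Mature colonocyte markers, led by Car1 at 2 weeks, fell in 5 of 10 cases in each, from sums of 16380.5 to 29181 CPM and 15681 to 21132 CPM at 2 weeks. Their part in the time comparison was not tested.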

How the data were processed

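Bulk RNA-seq libraries of mouse colon were taken as deposited. The authors used Cutadapt for trimming, STAR for alignment (mm10) and Picard for checks, and deposited RSEM expected counts per gene, whose strand setting is not stated. Of 55450 genes, 55449 were used, since 1 had text in a cell; 4.24% of the values were not whole and were rounded. Total expected counts ran from 12401388 to 17903008 (median 15874872), and the lowest count of any of the 36 genes was 59. Replicates were checked as separate libraries, with a chi-square per degree of freedom of 16.6 to 126 in 33 pairs.

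Tests used edgeR 4.0.16 quasi-likelihood with TMM and filterByExpr, Benjamini-Hochberg adjusted p under 0.05, in R 4.3.3, and were tested on simulated data. The 4 groups of 12 weeks shared 1 fit for the tumor comparisons and the interaction, the 4 groups without tumors shared 1 for time, and each BSH comparison used its 2 groups. Alternatives were DESeq2 1.42.0, limma-voom 3.58.1, other scaling, other filters, the 2 groups alone, omission of each library in turn, and a replicate block. Tables and figures used Python 3.11.15, pandas 2.3.3, numpy 2.4.6 and matplotlib 3.10.9. The 36 genes and the lists were chosen with earlier results of these data known. In each role the genes with the largest and smallest log2 fold change in BSHlow tumors are shown by library. Beyond that rule, Tsr1, Nop16, Mrto4, Myc and Mxd1 were each chosen after its values were seen. The level of 1 marker gene is not reported here.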

Additional observations from a re-analysis of the deposited data

Results flagged for a closer look

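In 95 groups of libraries, the library farthest from the others was tested by its gap over the range (Dixon), and 4 groups passed, where chance gives about 1 in 20 groups. The summed level of the nucleolar scaffold genes was 990.1 CPM in BSHlow non-tumor library 3, while the other 3 libraries held 922.2 to 931.9 CPM. Small subunit assembly genes summed to 255.7 CPM in BSHlow normal library 4 at 2 weeks, against 194.2 to 202.1 CPM. Ncl stood at 329.8 CPM in the same library, against 268.3 to 277.7 CPM. Nhp2 stood at 33.3 CPM in BSHlow non-tumor library 4, against 23.32 to 24.35 CPM. All libraries were kept.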

How the results depend on the processing

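The count of genes that rose in tumors was 33 in both kinds of mice whichever library was left out. In BSHlow mice the count lower was 0 with library size alone, 1 with upper-quartile factors, with no filter, and with only the 2 groups compared, and 1 to 2 when 1 library was left out. In BSHhigh mice it was 1 with library size alone and 1 to 2 when 1 library was left out. Past a log2 fold change of 1, library size alone gave 32 genes in BSHlow and 27 in BSHhigh mice, or 88.9% and 75%, against 24.3% and 21.5% of all genes.

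Signs turned for genes near 0. Polr1c in BSHlow tumors was -0.018 with DESeq2 and -0.018 with RLE factors, and -0.057 to 0.10 when 1 library was left out, with -0.052 without non-tumor library 2, -0.023 without tumor library 2 and -0.057 without tumor library 3. In BSHhigh tumors Polr1c was 0.29 with library size alone and 0.026 with upper-quartile factors, and -0.057 to 0.063 when 1 library was left out, with 0.038 without non-tumor library 2 and 0.063 without tumor library b. Mxi1 in BSHlow tumors was -0.030 with DESeq2, -0.012 with limma-voom, -0.030 with RLE factors, -0.0052 with a CPM filter and -0.0050 with only the 2 groups. Leaving out non-tumor library 1 or 3 gave Mxi1 -0.019 and -0.077, and leaving out tumor library 2 or 3 gave -0.12 and -0.081. In BSHhigh tumors library size alone gave Mxi1 0.25, Ddx47 0.14, Nop53 0.093 and Taf1c 0.026, and in BSHlow tumors it gave Tsr1 0.095 and Ddx47 0.21.

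BSHhigh against BSHlow tumors gave 1 called gene, Wdr75, and 1 lower with DESeq2, or 2.78%, against 4.84% of all genes called and 0.881% lower by that tool. The adjusted calls stayed at 0 in non-tumor tissue and at 2 weeks. For time in BSHlow mice, library size alone gave 22 called, 22 higher and 0 lower, and upper-quartile factors gave 11 called, 11 higher and 0 lower, where 30.6% higher stood against 28.1% of all genes. The count lower was also 0 with RLE factors, with no filter and with only the 2 groups, and 0 to 2 when 1 library was left out. Leaving out 1 library gave 5 to 12 called and 5 to 12 higher, with 12 of each without BSHlow normal library 4. In BSHhigh mice library size alone gave 25 called and 25 higher, and 1 was lower with DESeq2, with RLE factors and with only the 2 groups, and 0 to 1 when 1 library was left out.

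The log2 ratio of the summed level of the 36 genes, tumor to non-tumor tissue, was 1.52 per epithelial marker level and 1.16 with library size alone in BSHlow mice, and 1.32 and 1.04 in BSHhigh mice. The epithelial marker level was itself lower in tumors, which raises the values of 1.52 and 1.32. BSHhigh to BSHlow at 2 weeks was -0.22 per epithelial marker level. Over time it was 0.66 per epithelial marker level, 0.53 with library size alone and 0.20 without Ncl and Npm1 in BSHlow mice, and 0.85 and 0.59 in BSHhigh mice.

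With a replicate block for samples of the same number, whose pairing the labels do not state, BSHlow tumors gave 33 higher and 1 lower, and Mxi1 was -0.015, while Mycn was no longer called (edgeR adjusted p = 0.0590). The replicate block gave 0 calls in non-tumor tissue and at 2 weeks, 4 higher and 1 lower over time in BSHlow mice, and 11 higher and 1 lower in BSHhigh mice. No comparison with BSHhigh tumors could be paired, since the names over their columns repeat those of BSHlow tumors and give them no numbers of their own, and the interaction was not run with other samples in the fit. The cause of these shifts was not tested.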
